A study of Mus musculus with 33 samples.

Results

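Liver tumours driven by MYC together with a stabilised β-catenin were compared with liver tumours driven by MYC alone, using sequenced total RNA. The tumours were chosen by their genotype labels and made up 6 of the 33 libraries of the series: 3 MYC+Ex3 tumours and 3 MYC tumours. Of the 21671 genes in the table, 11064 reached an RPKM (reads per kilobase of gene per M reads of a library) of at least 1 in at least 3 of these 6 tumours, and these were tested. All 6 were nodules from livers of C57BL/6 mice that carried Alb-CreERT2 and R26-lslMYC. Alb-CreERT2 is a Cre recombinase that the albumin promoter drives in hepatocytes and that 4-hydroxytamoxifen (4-OHT) activates. R26-lslMYC is a MYC transgene at the Rosa26 locus behind a stop cassette that Cre removes. The MYC+Ex3 mice carried in addition b-catEx3, a β-catenin allele (Ctnnb1) whose exon 3, which holds the residues that mark the protein for destruction, is removed by Cre. The labels give no treatment, age or time for the tumours, and do not say whether the nodules of a group came from separate mice, so p-values measure only the spread between these samples, which may be technical. A further 7 livers, from wild-type mice 4 days after 4-OHT, are given as a reference level and entered the fit only where this is stated.

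β-Catenin carries the canonical Wnt signal into the nucleus, where it acts with TCF and LEF proteins on target genes, several of which encode feedback inhibitors of the pathway. In the normal liver this signal is strongest around the central vein. Pericentral hepatocytes there make glutamine from ammonia and glutamate and hold many drug-metabolising enzymes, whereas periportal hepatocytes at the other end of the lobule break down amino acids and run the urea cycle. MYC is a transcription factor that raises ribosome production and cell growth.

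Between 6.674 and 9.824 M reads fell in genes in each of the 6 tumours, where 16034 to 17185 genes had a read. In the 7 4-OHT livers this total was 6.649 to 8.589 M. MYC tumours differed more among themselves than MYC+Ex3 tumours: the median SD of log2(RPKM + 1) per gene was 0.272 against 0.161, and 0.176 in the 4-OHT livers. MYC tumour 1 stood apart from the other 5 on the leading principal component, which held 43.5% of the variance (a score of -52.1 against -2.26 to 19.8), and had the fewest reads in genes. It had 0.0761 RPKM of Cdh1, which encodes E-cadherin, against 6.50 to 13.2 in the other 5 tumours, and 1.97 RPKM of the fetal gene Afp against 29.6 to 42.1. By Xist and Ddx3y all 3 MYC tumours were male and MYC+Ex3 tumour 3 was female, while the 4-OHT livers were 4 males and 3 females. MYC tumour 3 had lower Ddx3y, at 2.35 RPKM, than the other 4 male tumours, at 12.5 to 21.6. The most abundant genes shared an upper limit: the highest RPKM of a tumour times its relative library total lay between 67.5 and 71.5 in all 6, and Glul reached 96% of the highest value. In all, 618 of the genes tested reached 50% or more of the highest value in at least 1 tumour. Among them were Cyp2e1 (79.4%), Hpd (74.3%), Cps1 (71.2%), Arg1 (72.0%) and the coagulation gene Fgb (91.1%). The part of this limit in the size of a change, or in the lack of one, was not tested. Hepatocyte genes were present throughout, with Alb at 33.2 to 50.8 RPKM and Hnf4a at 24.4 to 39.4 RPKM in the 6 tumours.

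The genes that the alleles target were examined first. Ctnnb1 had 32.1, 23.3 and 24.5 RPKM in MYC tumours 1, 2 and 3 and 26.4, 27.9 and 29.1 RPKM in MYC+Ex3 tumours 1, 2 and 3, and the groups overlapped. Its log2 change, on the scale of log2(RPKM + 1) used for all changes here, was 0.07 ± 0.17 (SE; limma adjusted p = 0.943). The RPKM covers the whole gene, so it does not show whether exon 3 was removed. Mouse Myc had 1.55, 2.27 and 1.90 RPKM against 2.06, 2.21 and 2.52 RPKM, also overlapping, with a change of 0.17 ± 0.17 (limma adjusted p = 0.809). The labels do not give the species of the MYC transgene. The markers Axin2, Rhbg and Sds did not overlap between the groups: Axin2 and Rhbg were higher in every MYC+Ex3 tumour and Sds was lower in every one.

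Across all genes, 42 rose and 28 fell in MYC+Ex3 tumours, 70 of 11064 or 0.633% (limma with Benjamini-Hochberg adjustment, adjusted p under 0.05). By direction these were 0.38% and 0.253% of the genes tested. At an unadjusted p under 0.05 there were 1132 of the 11064 genes, the share against which the list counts at this cut below are to be read. All but 1 of the 70 changed by at least 1 on the scale of log2(RPKM + 1). The exception was Esam, at 0.98, whose mean RPKM rose 2.13-fold. Without an overlap between the groups, 1007 genes lay above in all MYC+Ex3 tumours (9.1%) and 742 below (6.71%). The median log2 change over all genes tested was 0.05, and 0.03 after rescaling of the libraries by the median ratio. The filter shaped this set: 23 of the 42 rising genes reached 1 RPKM in no MYC tumour, and 11 of the 28 falling genes in no MYC+Ex3 tumour. With 3 tumours a group the count also rested on single tumours, as no gene was called without MYC+Ex3 tumour 1 or without MYC+Ex3 tumour 3 (741 and 688 genes at an unadjusted p under 0.05), 10 were called without MYC+Ex3 tumour 2 and 170 without MYC tumour 2. Leaving out a MYC+Ex3 tumour also removed 23 of the 70 genes from the test by the filter, and the other 47 kept their direction in each of these fits. With the 7 4-OHT livers sharing the estimate of spread, 247 genes were called higher (2.23%) and 240 lower (2.17%), together 4.4%, among them 69 of the 70.

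**Figure D1:**
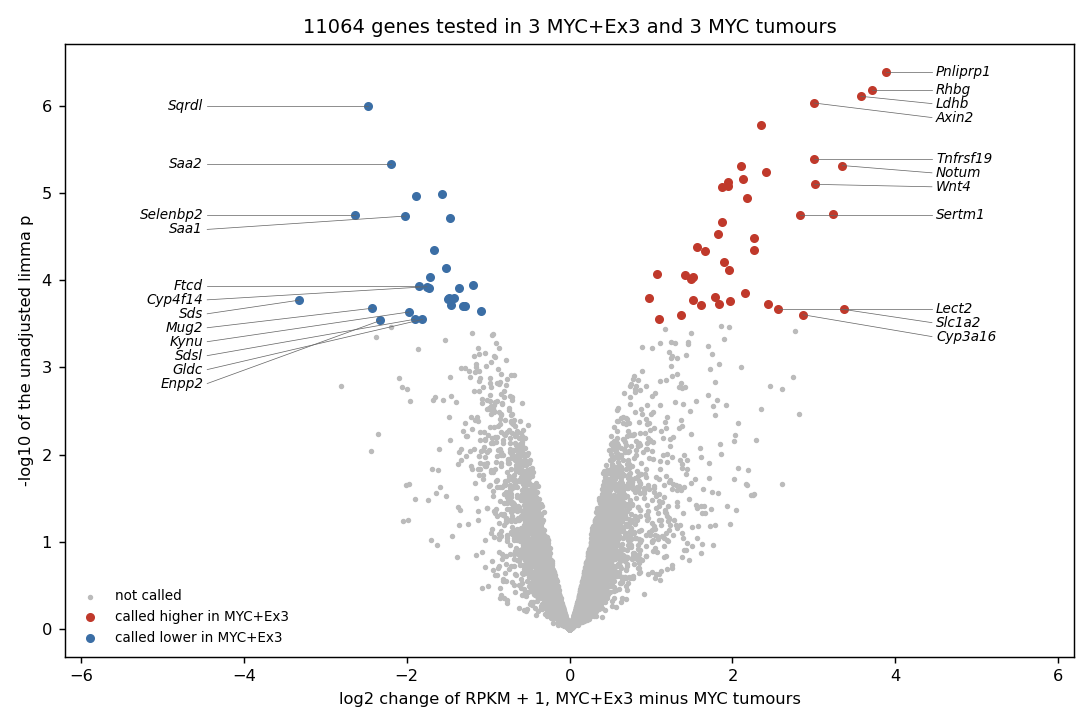
Volcano plot of 11064 genes, with the log2 change of RPKM + 1 (MYC+Ex3 minus MYC tumours) on the x axis and the negative log10 of the unadjusted limma p on the y axis. Red points are the 42 genes called higher and blue points the 28 called lower, and the labels mark genes among the largest rises and falls, from Pnliprp1 at 3.89 to Sds at -3.33.

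Targets and feedback inhibitors of the Wnt pathway were among the rising genes. Of 25 such genes, 14 passed the filter; 8 rose and none fell (Axin2, Lgr5, Nkd1, Notum, Znrf3, Sp5, Tnfrsf19 and Tcf7), against 0.38% of all genes called higher, and the median log2 change of the 14 was 2.03 against 0.05 for all genes tested. Of the 14, 5 (Axin2, Lgr5, Nkd1, Sp5 and Tcf7) passed only through the MYC+Ex3 tumours and so had to differ. Over all 25 genes, tested or not, 12 lay above in every MYC+Ex3 tumour, 1 lay below (Fzd2, near 0 in all) and the rest overlapped, where 6.35% of all 21671 genes lay above and 6.53% below. Without MYC tumour 1, 9 of 14 rose, with voom on the recovered reads 4 did, without MYC+Ex3 tumour 2 the number was 2, and without MYC+Ex3 tumour 1 or 3 it was 0. Leaving out any MYC+Ex3 tumour also removed Axin2, Lgr5, Nkd1, Sp5 and Tcf7 from the test by the filter.

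Axin2, a scaffold of the complex that destroys β-catenin and itself a β-catenin target, had 0.332, 0.660 and 0.0946 RPKM in the MYC tumours and 10.7, 7.63 and 11.3 RPKM in the MYC+Ex3 tumours. The lowest MYC+Ex3 value was above the highest MYC value and above all 4-OHT livers (0.793 to 1.995 RPKM), while the MYC tumours lay below all of these livers. The log2 change was 3.0 ± 0.22 (SE; limma adjusted p = 0.00223). Notum, which encodes a secreted enzyme that inactivates Wnt ligands, had 0.494, 1.90 and 0.243 RPKM against 17.6, 14.2 and 19.1 RPKM and rose by 3.35 ± 0.31 (limma adjusted p = 0.0054). In 4-OHT livers it had 8.08 to 11.8 RPKM, so the MYC tumours lay below the livers and the MYC+Ex3 tumours above them. Nkd1, an inhibitor of the pathway inside the cell, had 0.113, 0.352 and 0.0547 RPKM against 6.10, 2.63 and 5.90 RPKM and rose by 2.27 ± 0.28 (limma adjusted p = 0.0164). Its lowest MYC+Ex3 value was that of tumour 2, which had the lowest MYC+Ex3 value in 28 of the 42 rising genes.

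Receptors and the ligases that act on them were higher as well. Lgr5, a receptor for R-spondins, had 0.0708, 0.249 and 0.0392 RPKM against 3.77, 2.59 and 3.60 RPKM (log2 change 1.94 ± 0.19, limma adjusted p = 0.00589). Znrf3, a ubiquitin ligase that removes Wnt receptors from the cell surface, had 1.68, 3.06 and 3.45 RPKM against 8.76, 7.41 and 9.18 RPKM and rose by 1.37 ± 0.22 (limma adjusted p = 0.0418), the smallest rise of the 8. Its partner Rnf43 had 2.78, 0.801 and 0.0827 RPKM against 8.10, 5.64 and 8.81 RPKM. All MYC+Ex3 values of Rnf43 were higher, but its change of 2.11 ± 0.42 passed the threshold with the 4-OHT livers in the fit and not in the 6 tumours alone (limma adjusted p = 0.098 without and 0.0022 with them), as did that of Dkk3 (1.93 ± 0.45, limma adjusted p = 0.149 and 0.00377). Tnfrsf19, a receptor of the tumour necrosis factor family, had 0.232, 1.12 and 0.0856 RPKM against 10.6, 8.64 and 11.9 RPKM and rose by 3.0 ± 0.27 (limma adjusted p = 0.0054).

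Among the transcription factors, Sp5 was next to absent from MYC tumours: 0, 3 and 1 reads were recovered there, against 218, 185 and 304 reads in the MYC+Ex3 tumours. The ratio per library total was 181 (exact 95% interval 70.5 to 668, counting error only). In RPKM Sp5 had 0, 0.0368 and 0.0129 against 2.86, 2.95 and 4.69, with 4-OHT livers at 0.0637 to 0.274. Tcf7, which encodes a DNA-binding partner of β-catenin, had 0.340, 0.552 and 0.300 RPKM against 5.80, 5.20 and 7.55 RPKM and rose by 2.35 ± 0.19 (limma adjusted p = 0.00307). Its relative Lef1 stayed below the filter, with 0.0713, 0.108 and 0.0958 RPKM against 0.696, 0.162 and 0.352 RPKM and no overlap, and so did the Wnt inhibitor Wif1 at 0, 0.195 and 0 RPKM against 0.637, 0.916 and 1.38 RPKM. The other list members tested did not separate the groups. The cell-cycle gene Ccnd1 had 2.14, 2.76 and 12.9 RPKM against 11.1, 9.95 and 6.22 RPKM, with MYC tumour 3 above every MYC+Ex3 tumour, and Cd44, Tle3 and Kremen1 had limma adjusted p of 0.971, 0.754 and 0.987. At the edge of the filter, the third highest of the 6 values was 1.2 RPKM for Kremen1, just inside, and 0.848 RPKM for Sox9, just outside.

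**Figure D2:**
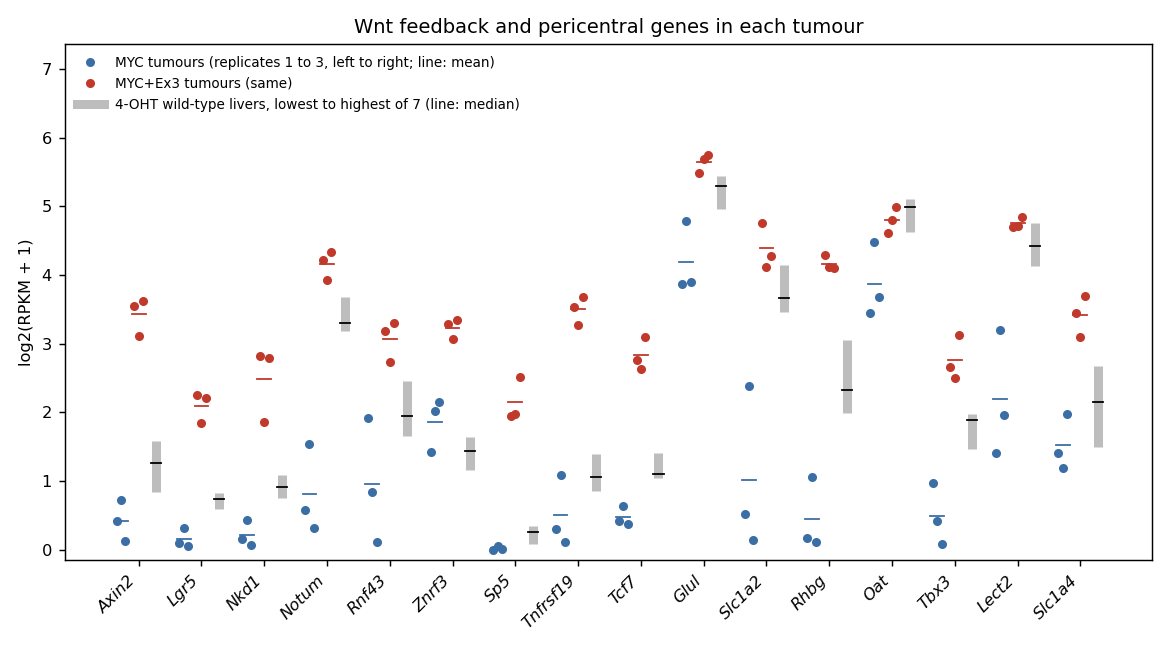
Level of Wnt feedback genes (Axin2 to Tcf7) and pericentral genes (Glul to Slc1a4) as log2(RPKM + 1), with 1 point per tumour in blue (MYC) and red (MYC+Ex3), a line at each group mean, and a grey bar over the range of 7 4-OHT livers with a line at their median. For each gene shown the 3 red points lie above the 3 blue points; for Axin2 the MYC+Ex3 tumours had 7.63 to 11.3 RPKM and the MYC tumours 0.0946 to 0.660 RPKM.

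TCF and LEF proteins recognise the motif CTTTGAT. It was searched on both strands in RefSeq promoter windows of assembly GRCm38.p6, from 250 bases before to 50 bases after each annotated start. A match was in 3.73% of all 32851 windows and in 2.49% of the 10573 windows of tested genes. Of the 42 rising genes 26 had a window, and 5 of their 35 windows (14.3%) held the motif, against 1 of 27 windows (3.7%) for the 20 falling genes with one. These shares are a description, and a match is not a binding site. The 250 bases before the start of 4 rising genes are shown because their match lies there, with the motif in capitals, 5′ to 3′ on the strand of the gene. The windows are chr13:56548539-56548788 on the minus strand for Lect2, with the motif 32 to 26 bases before the start, and chr2:102706188-102706437 on the plus strand for Slc1a2, 207 to 201 bases before it. For Sp5 the window is chr2:70474673-70474922 on the plus strand, 104 to 98 bases before the start, and for Tnfrsf19 it is chr14:61037988-61038237 on the minus strand, 202 to 196 bases before an annotated start. The fifth rising gene, Teddm2, had its match after the start, and the falling gene was Cxcl12. Of the 14 Wnt feedback genes tested, 8 had a window and 2 held a match. Axin2, Nkd1 and Tcf7 had windows without a match. Lgr5, Notum, Znrf3, Rhbg and Tbx3 had no window and were not searched.
Lect2: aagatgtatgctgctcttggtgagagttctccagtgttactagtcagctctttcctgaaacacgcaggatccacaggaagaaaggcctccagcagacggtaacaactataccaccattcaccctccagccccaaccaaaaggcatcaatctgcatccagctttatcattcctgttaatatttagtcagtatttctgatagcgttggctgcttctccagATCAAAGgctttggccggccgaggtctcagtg
Slc1a2: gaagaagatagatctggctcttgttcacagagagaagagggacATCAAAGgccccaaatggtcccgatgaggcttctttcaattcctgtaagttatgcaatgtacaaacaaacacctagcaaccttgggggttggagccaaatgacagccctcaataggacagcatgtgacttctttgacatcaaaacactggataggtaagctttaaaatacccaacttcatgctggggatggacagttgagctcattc
Sp5: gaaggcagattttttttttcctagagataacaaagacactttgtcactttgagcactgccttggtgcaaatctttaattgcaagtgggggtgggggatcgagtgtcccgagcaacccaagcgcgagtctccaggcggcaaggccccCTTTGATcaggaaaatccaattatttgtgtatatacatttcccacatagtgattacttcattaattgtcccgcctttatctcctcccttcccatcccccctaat
Tnfrsf19: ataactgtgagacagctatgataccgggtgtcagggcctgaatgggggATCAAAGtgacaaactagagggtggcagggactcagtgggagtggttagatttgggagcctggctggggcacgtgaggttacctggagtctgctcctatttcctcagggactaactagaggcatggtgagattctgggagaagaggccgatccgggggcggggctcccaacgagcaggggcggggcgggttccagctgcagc
The match sits close to the start in Lect2 and near the far end of the stretch in Slc1a2 and Tnfrsf19.

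Some pericentral genes rose as well. Of 46 tested, 5 rose and none fell (Rhbg, Slc1a2, Tbx3, Lect2 and Slc1a4), against 0.38% of all genes called higher. With the 4-OHT livers in the fit 14 were called higher and 1 lower (Arsa), against 2.23% and 2.17% of all genes. In 16 members every MYC+Ex3 tumour lay above every MYC tumour (34.8% against the 9.1% of all genes; Tbx3 passed the filter only through the MYC+Ex3 tumours and so had to differ) and in 1 below, and the median log2 change was 0.93 (0.26 without MYC tumour 3). Without MYC tumour 1, 7 rose, without MYC+Ex3 tumour 2 1 did, and with voom or without MYC+Ex3 tumour 1 or 3 none did. In the fits without a MYC+Ex3 tumour Tbx3 was not tested. Without MYC tumour 2, 9 rose and 1 fell. All MYC tumours lay below all 4-OHT livers in 16 of the 46 genes, against 6.9% of all genes tested. All MYC+Ex3 tumours lay below these livers in 12, against 14.0% of all genes, and above them in 10, against 41.0%.

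The rises included transporters of ammonium and amino acids. Rhbg, an ammonium transporter, had 0.124, 1.09 and 0.0800 RPKM against 18.5, 16.3 and 16.1 RPKM and rose by 3.72 ± 0.26 (limma adjusted p = 0.00223). All MYC+Ex3 values were above the 4-OHT livers (2.98 to 7.27 RPKM) and all MYC values below them. Slc1a2, which takes up glutamate, had 0.434, 4.22 and 0.105 RPKM against 26.2, 16.4 and 18.4 RPKM and rose by 3.37 ± 0.53 (limma adjusted p = 0.0387), with MYC tumour 2 the highest of its group. Slc1a4, a transporter of neutral amino acids, rose by 1.89 ± 0.25 (limma adjusted p = 0.0214), from 1.65, 1.29 and 2.92 RPKM to 9.92, 7.60 and 11.98 RPKM. Glul, the enzyme that makes glutamine, had 13.7, 26.6 and 13.9 RPKM against 43.9, 50.8 and 52.7 RPKM. Its groups did not overlap, but the change of 1.46 ± 0.26 missed the threshold (limma adjusted p = 0.0678, and 0.00114 with the 4-OHT livers), and the values of the MYC+Ex3 tumours are near the upper limit described above. Oat, which links ornithine to glutamate, had 9.89, 21.2 and 11.8 RPKM against 23.4, 27.0 and 30.9 RPKM, again without overlap (log2 change 0.94 ± 0.27, limma adjusted p = 0.255, and 0.0321 with the livers). Tbx3, a transcription factor of pericentral cells, rose by 2.27 ± 0.27 (limma adjusted p = 0.0135), and Lect2, a secreted protein of hepatocytes, by 2.56 ± 0.40 (limma adjusted p = 0.0386), from 1.66, 8.22 and 2.91 RPKM to 24.9, 25.1 and 27.8 RPKM.

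Some of the most abundant pericentral genes overlapped between the groups. Cyp2e1, a cytochrome P450, had 47.5, 28.8 and 8.05 RPKM in MYC tumours 1, 2 and 3 and 35.4, 43.7 and 43.9 RPKM in MYC+Ex3 tumours (limma adjusted p = 0.673). Cyp1a2, another cytochrome P450, had 9.89, 15.3 and 1.26 RPKM against 21.4, 14.3 and 15.5 RPKM (limma adjusted p = 0.569), and the bile acid enzyme Cyp27a1 36.3, 17.4 and 7.22 RPKM against 25.6, 29.6 and 35.2 RPKM (limma adjusted p = 0.647). In these 3 genes MYC tumour 3 was the lowest of all 6 tumours. Summed over the 50 pericentral genes, the level was 809, 591 and 280 RPKM in MYC tumours 1, 2 and 3 and 844, 867 and 913 RPKM in the MYC+Ex3 tumours against 789 to 1120 RPKM in the 4-OHT livers. MYC tumour 1 was near the MYC+Ex3 tumours in this sum, while it was the lowest of all 6 for Lect2. Its highest RPKM was 67.5, against 42.9 to 55.3 in the other tumours. Its sum over 30 hepatocyte identity genes was also the highest, at 732 RPKM against 448 to 591 RPKM. The part of the upper limit in these sums was not tested, so the pericentral sum alone does not show a likeness to the MYC+Ex3 tumours. Members called with the 4-OHT livers and not in the 6 tumours alone included Avpr1a, a vasopressin receptor (7.68, 1.85 and 0.375 RPKM against 19.4, 16.9 and 20.1 RPKM), Gulo, the last enzyme of vitamin C synthesis (11.4, 13.4 and 2.03 RPKM against 31.6, 34.1 and 34.4 RPKM), and Lhpp, a phosphatase (7.97, 5.42 and 0.792 RPKM against 23.3, 21.6 and 30.2 RPKM). Their limma adjusted p were 0.122, 0.188 and 0.12 in the 6 tumours alone and 0.00679, 0.00869 and 0.00241 with the livers.

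Genes for the breakdown of amino acids were among the falling genes. Of 43 tested, 6 fell and none rose (Sds, Sdsl, Uroc1, Ftcd, Kynu and Gldc), against 0.253% of all genes called lower. With the 4-OHT livers 10 were called lower and none higher, against 2.17% of all genes called lower. In every MYC+Ex3 tumour 12 lay below (27.9% against 6.71% of all genes). The median log2 change was -0.16, and 37 members did not pass the test. Without MYC tumour 1, 5 fell, 1 rose and the median was 0.07, and without MYC+Ex3 tumour 1 it was 0.01, both of the opposite sign. Without MYC tumour 2 or MYC+Ex3 tumour 2, 3 fell, without MYC tumour 3 1 did, and with voom or without MYC+Ex3 tumour 1 or 3 none did.

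Serine and glycine breakdown came first. Sds, which turns serine into pyruvate, had 27.4, 26.5 and 30.3 RPKM in the MYC tumours, inside the range of the 4-OHT livers (23.4 to 34.7 RPKM), against 0.402, 6.04 and 1.45 RPKM in the MYC+Ex3 tumours. The groups were far apart, although MYC+Ex3 tumour 2 had more of it than the other two. The log2 change was -3.33 ± 0.50 (limma adjusted p = 0.0362). Its relative Sdsl had 3.39, 6.73 and 9.47 RPKM against 0.632, 1.09 and 1.01 RPKM and fell by 1.90 ± 0.31 (limma adjusted p = 0.0453). Gldc, the glycine-cleaving enzyme, had 20.8, 16.7 and 17.5 RPKM against 2.36, 6.49 and 5.66 RPKM and fell by 1.81 ± 0.29 (limma adjusted p = 0.0453). The other proteins of that complex, Amt, Gcsh and Dld, had changes of -0.02, -0.01 and 0.03 (limma adjusted p = 0.991, 0.991 and 0.976).

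The pathway from histidine to glutamate lay lower in every MYC+Ex3 tumour at each of its 4 enzymes. Hal, the entry enzyme, had 23.2, 13.1 and 7.16 RPKM against 1.12, 5.66 and 5.79 RPKM (log2 change -1.62 ± 0.53, limma adjusted p = 0.314). Uroc1, the next enzyme, had 19.9, 20.4 and 19.2 RPKM against 3.15, 6.76 and 6.70 RPKM and fell by 1.73 ± 0.25 (limma adjusted p = 0.031). Amdhd1 had 20.1, 16.6 and 17.7 RPKM against 5.05, 9.35 and 8.60 RPKM (log2 change -1.18 ± 0.22, limma adjusted p = 0.0809). The groups did not overlap in any of these 3 genes, though only Uroc1 passed the threshold in the 6 tumours. Ftcd, which passes the remaining carbon unit to folate, had 17.2, 19.9 and 18.0 RPKM against 2.58, 6.70 and 4.56 RPKM and fell by 1.85 ± 0.27 (limma adjusted p = 0.031). With the 4-OHT livers in the fit all 4 were called lower (limma adjusted p = 0.0334, 0.000158, 0.00536 and 0.00017).

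In the breakdown of tryptophan, Kynu, which cleaves kynurenine, had 11.9, 7.55 and 5.33 RPKM against 0.705, 2.11 and 1.18 RPKM and fell by 1.97 ± 0.31 (limma adjusted p = 0.0401). The entry enzyme Tdo2 had 48.2, 22.5 and 25.5 RPKM against 12.1, 19.4 and 5.59 RPKM without overlap (log2 change -1.38 ± 0.43, limma adjusted p = 0.295, and 0.0357 with the livers), and so did Aass, which opens the breakdown of lysine, with 16.6, 12.1 and 16.6 RPKM against 3.15, 9.81 and 3.11 RPKM (log2 change -1.49 ± 0.37, limma adjusted p = 0.178 and 0.00977). By contrast, the tyrosine breakdown enzymes Hpd, Hgd and Fah did not separate the groups. They had log2 changes of 0.18, 0.04 and -0.04, with limma adjusted p of 0.871, 0.986 and 0.981. The only member above in every MYC+Ex3 tumour was Prodh, which starts the breakdown of proline, with 17.1, 9.13 and 11.0 RPKM against 19.1, 21.6 and 20.4 RPKM (log2 change 0.71 ± 0.22, limma adjusted p = 0.294).

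**Figure D3:**
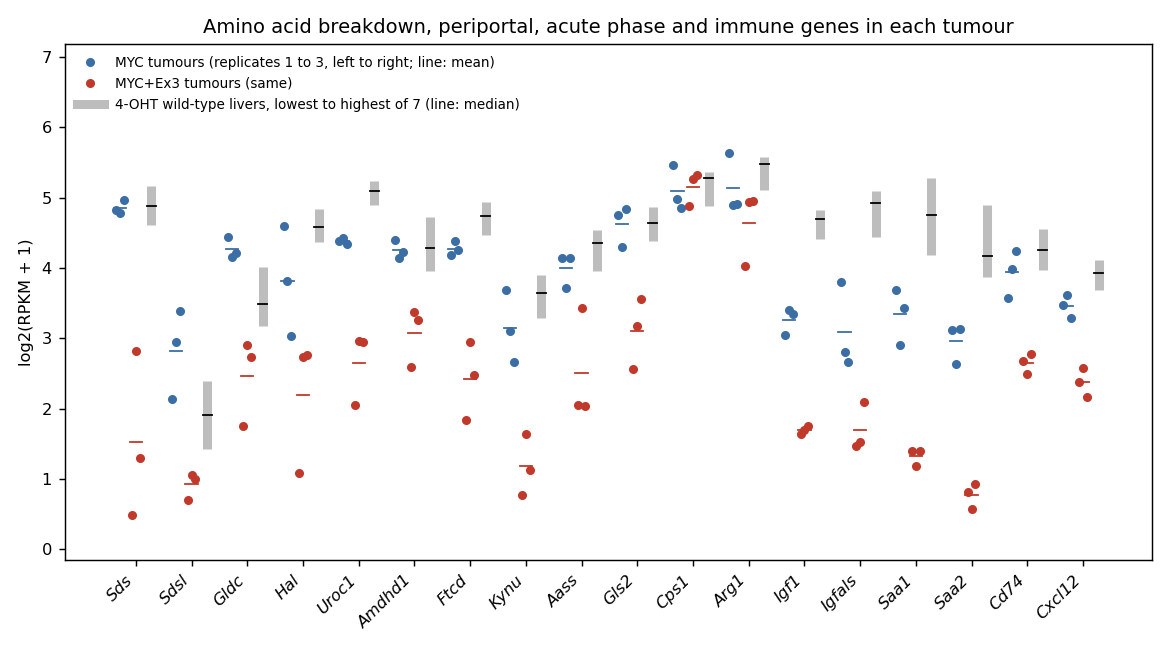
Level of amino acid breakdown, periportal, acute phase and immune genes as log2(RPKM + 1), with 1 point per tumour in blue (MYC) and red (MYC+Ex3), a line at each group mean, and a grey bar over the range of 7 4-OHT livers with a line at their median. The red points lie below the blue ones for every gene shown except Cps1 and Arg1, where the groups overlap; Sds is at 26.5 to 30.3 RPKM in MYC tumours and 0.402 to 6.04 RPKM in MYC+Ex3 tumours.

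Periportal genes, some of which are amino acid enzymes named above, gave 0 rises and 6 falls among 49 tested (Sds, Sdsl, Uroc1, Ftcd, Gldc and Igf1), and 12 falls with the 4-OHT livers. Of all genes 0.253% fell in the 6 tumours and 2.17% with the livers. In 15 members every MYC+Ex3 tumour lay below every MYC tumour (30.6% against 6.71%), and in none above, with a median log2 change of -0.40 (-0.12 without MYC+Ex3 tumour 1). Without MYC tumour 1, 8 fell, without MYC+Ex3 tumour 2 3 did, without MYC+Ex3 tumour 1 or 3 none did, and the number was 1 without MYC tumour 3 and with voom on the recovered reads. In 24 of the 49 genes all MYC+Ex3 tumours were below all 4-OHT livers, and in 8 all MYC tumours were, against 14.0% and 6.9% of all genes tested. Igf1, the growth factor that hepatocytes release into blood, had 7.30, 9.53 and 9.16 RPKM against 2.10, 2.24 and 2.38 RPKM and fell by 1.57 ± 0.16 (limma adjusted p = 0.00666). Both groups were below the 4-OHT livers (20.4 to 27.4 RPKM). Igfals, which encodes a protein that holds IGF1 in the circulation, had 12.9, 5.98 and 5.36 RPKM against 1.76, 1.87 and 3.27 RPKM (log2 change -1.40 ± 0.32, limma adjusted p = 0.145, and 0.00701 with the livers).

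No enzyme of the urea cycle was called. Cps1, its first enzyme, had 43.3, 30.6 and 27.8 RPKM against 28.4, 37.3 and 38.8 RPKM (log2 change 0.05 ± 0.22, limma adjusted p = 0.971), and Ass1, Asl and Arg1, with log2 changes of -0.33, -0.03 and -0.50, also overlapped between the groups (limma adjusted p = 0.725, 0.986 and 0.655). Cps1, Arg1 and Asl reached 71.2%, 72.0% and 58.5% of the highest value in a tumour, and the part of the upper limit described above was not tested. Of the cycle's enzymes only Otc was lower in every MYC+Ex3 tumour (27.5, 17.5 and 15.1 RPKM against 9.22, 14.0 and 12.1 RPKM, log2 change -0.70 ± 0.25, limma adjusted p = 0.363). Gls2, the liver glutaminase that releases ammonia from glutamine, had 25.9, 18.6 and 27.7 RPKM against 4.92, 8.03 and 10.8 RPKM without overlap. Its change of -1.53 ± 0.27 missed the threshold in the 6 tumours (limma adjusted p = 0.066) and passed it with the livers (0.000929). In all, 3 of 25 urea and nitrogen genes rose (Rhbg, Slc1a2 and Slc1a4) and none fell, against 0.38% and 0.253% of all genes, while 6 lay above and 2 below without overlap (24.0% and 8.0%, against 9.1% and 6.71%). With the livers 5 were called higher and 1 lower, against 2.23% and 2.17% of all genes. The gluconeogenic gene Pck1 had 34.5, 29.2 and 14.3 RPKM against 2.89, 25.7 and 23.6 RPKM, with MYC+Ex3 tumour 1 alone at the low end (limma adjusted p = 0.742).

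Most of the 70 genes lay outside the lists: 16 of the 42 rising and 11 of the 28 falling genes were in at least 1. The largest rise on the log2(RPKM + 1) scale was that of Pnliprp1, a relative of pancreatic lipase, with 0, 0.684 and 0.0167 RPKM against 17.0, 13.2 and 20.8 RPKM (log2 change 3.89 ± 0.26, limma adjusted p = 0.00223). It rested on 0, 43 and 1 reads in the MYC tumours against 998, 636 and 1040, a ratio of 62.4 per library total (exact 95% interval 46.3 to 86.1, counting error only), and the 4-OHT livers had at most 0.0206 RPKM. Ldhb, the lactate dehydrogenase subunit typical of heart, had 0.162, 0.878 and 0.189 RPKM against 19.2, 16.5 and 11.4 RPKM and rose by 3.58 ± 0.26 (limma adjusted p = 0.00223). In both genes every MYC+Ex3 tumour was above every 4-OHT liver. Sertm1, a membrane protein gene listed at 0 in all 7 livers, had 0.0136, 0.910 and 0.00880 RPKM against 11.2, 6.28 and 6.81 RPKM (log2 change 2.83 ± 0.31, limma adjusted p = 0.00886). Myot, a muscle protein gene, went from 0, 2 and 0 reads to 752, 234 and 167, a ratio of 592 (exact 95% interval 163 to 4892), which is above that of Pnliprp1.

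Ligands and receptors were among the rising genes too. Wnt4, a secreted Wnt, had 0.114, 0.772 and 0.123 RPKM against 10.4, 6.17 and 13.1 RPKM and rose by 3.01 ± 0.30 (limma adjusted p = 0.00589). The growth factor genes Pdgfa and Bmp7 had 0.850, 1.19 and 2.10 RPKM against 5.41, 6.39 and 9.86 RPKM and 0.344, 0.378 and 0.714 RPKM against 2.15, 2.24 and 2.07 RPKM (limma adjusted p = 0.036 and 0.0453). Il1r1, the receptor for interleukin 1, had 3.73, 7.07 and 5.14 RPKM against 18.2, 22.1 and 22.2 RPKM (log2 change 1.82 ± 0.21, limma adjusted p = 0.0126). Pdk4, a kinase that blocks the entry of pyruvate into the citric acid cycle, was the only one of 27 fatty acid oxidation genes tested that was called, with 1.75, 3.14 and 1.01 RPKM against 9.29, 9.68 and 17.1 RPKM (log2 change 2.15 ± 0.32, limma adjusted p = 0.0344). Myot, Pdgfa, Bmp7 and Il1r1 were picked from the called genes after their values were seen. In 36 of the 42 rising genes all MYC+Ex3 tumours lay above all 4-OHT livers, against 41.0% of all genes tested. All MYC tumours lay below the livers in 14 of the 42 and above them in 4, against 6.9% and 28.2% of all genes. The 42 genes were chosen for a difference between these same tumours, so part of these shares is set by that choice.

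The falling genes outside the lists included enzymes and secreted proteins. Sqrdl, which oxidises sulfide in mitochondria, had 12.9, 9.16 and 11.6 RPKM, overlapping the 4-OHT range of 11.6 to 15.0 RPKM, against 1.12, 1.51 and 0.942 RPKM, and fell by 2.47 ± 0.19 (limma adjusted p = 0.00223), the smallest p among falling genes. Selenbp2, a selenium-binding protein gene with a close paralog, had 16.3, 7.43 and 9.22 RPKM against 0.438, 1.15 and 1.01 RPKM and fell by 2.63 ± 0.29 (limma adjusted p = 0.00886). Enpp2, which encodes the secreted enzyme autotaxin, had 10.1, 2.46 and 5.52 RPKM against 0.265, 0.369 and 0.153 RPKM and fell by 2.32 ± 0.38 (limma adjusted p = 0.0459). MYC tumour 2 was the lowest of its group for Enpp2 and still above every MYC+Ex3 tumour. Mug2, a protease inhibitor of plasma with close paralogs, fell by 2.43 ± 0.38 (limma adjusted p = 0.0386), and Cyp4f14, a fatty acid hydroxylase, by 1.75 ± 0.25 (limma adjusted p = 0.031). In 27 of the 28 falling genes all MYC+Ex3 tumours lay below all 4-OHT livers, and all MYC tumours did so in 12, against 14.0% and 6.9% of all genes tested. Here too the genes were chosen for a difference between these same tumours, which sets part of these shares. MYC+Ex3 tumour 2 was the highest of its group in 17 of the 28.

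The acute phase genes Saa1 and Saa2, which are near-identical copies whose reads can be split between them, both fell. Saa1 had 11.9, 6.46 and 9.81 RPKM against 1.62, 1.26 and 1.65 RPKM, with 4-OHT livers at 17.1 to 38.0 RPKM, and fell by 2.02 ± 0.22 (limma adjusted p = 0.00886). Saa2 had 7.69, 5.23 and 7.77 RPKM against 0.767, 0.494 and 0.902 RPKM and fell by 2.19 ± 0.20 (limma adjusted p = 0.0054). They were the only 2 of 32 iron and acute phase genes called, against 0.633% of all genes. Hamp2, a hepcidin gene, had 22.6, 3.42 and 23.7 RPKM against 1.20, 1.07 and 0.667 RPKM (log2 change -2.80 ± 0.60, limma adjusted p = 0.12, and 0.0211 with the livers), and Hamp 33.3, 20.3 and 22.7 RPKM against 14.4, 16.7 and 16.2 RPKM (limma adjusted p = 0.318), both without overlap. The pair is similar in sequence, so reads can be split between them.

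Interferon and MHC genes lay lower in MYC+Ex3 tumours for most members. Of 22 interferon and MHC genes tested 1 fell (Cd74) and none rose, against 0.253% of all genes called lower. With the 4-OHT livers 9 were called lower and none higher, against 2.17% of all genes called lower. In every MYC+Ex3 tumour 13 lay below and 1 above (59.1% and 4.5%, against 6.71% and 9.1% of all genes). Of the 13, Ifit1 and Ifit3 passed the filter only through the MYC tumours and so had to lie below. The median log2 change was -0.48. At an unadjusted p under 0.05, 11 were lower and 1 higher, without MYC tumour 1 4 fell, and with voom or without any other tumour none did. Cd74, the chain that escorts MHC class II molecules, had 10.9, 14.8 and 18.0 RPKM against 5.39, 4.64 and 5.84 RPKM and fell by 1.29 ± 0.20 (limma adjusted p = 0.0372). The class II genes H2-Aa, H2-Ab1 and H2-Eb1 also did not overlap and had log2 changes of -0.94, -1.28 and -1.16 (limma adjusted p = 0.158, 0.098 and 0.185). The class I genes H2-K1 and H2-D1 overlapped (limma adjusted p = 0.719 and 0.666). Of 9 chemokine genes tested 1 fell, against 0.253% of all genes. This was Cxcl12, a ligand that guides leukocytes, which had 10.1, 11.3 and 8.77 RPKM against 4.21, 4.96 and 3.50 RPKM (log2 change -1.08 ± 0.17, limma adjusted p = 0.0401). Without overlap 5 of the 9 lay below and none above (55.6% and 0%, against 6.71% and 9.1% of all genes). Of these 5, Ccl27a passed the filter only through the MYC tumours and so had to lie below. In a bulk nodule fewer cells of a type and less RNA per cell cannot be told apart.

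Markers of the other cell types a nodule can hold were examined for this reason. The summed level of 20 macrophage genes was 90.5, 239 and 175 RPKM in the MYC tumours and 133, 164 and 151 RPKM in the MYC+Ex3 tumours, with MYC tumour 2 alone reaching the 219 to 301 RPKM of the 4-OHT livers. Of 18 macrophage genes tested none was called by limma or voom, 0 had an unadjusted p under 0.05 and none separated the groups. The Kupffer cell gene Clec4f had 1.54, 14.9, 1.86, 3.88, 4.25 and 3.68 RPKM in the 6 tumours in the same order, with MYC tumour 2 highest, against 20.4 to 30.2 RPKM in the livers. The T cell gene Cd3e was at 0.197 RPKM or less in every tumour. The summed level of 20 endothelial genes was 58.7 to 78.4 RPKM in MYC and 58.0 to 61.2 RPKM in MYC+Ex3 tumours, while 8 of 14 tested members lay below in every MYC+Ex3 tumour (57.1% against 6.71%), among them Pecam1 at 8.32, 6.22 and 9.20 RPKM against 5.37, 4.60 and 5.29 RPKM (limma adjusted p = 0.317). None of the 8 was called in the 6 tumours, and 2 (Cdh5 and Cd34) were with the livers. Esam, an adhesion molecule of endothelial cells, went the other way and rose by 0.98 ± 0.15 (limma adjusted p = 0.036), from 5.30, 5.94 and 6.46 RPKM to 11.95, 13.8 and 12.1 RPKM. Lyve1 also lay above in every MYC+Ex3 tumour, at 6.25, 4.70 and 1.54 RPKM against 9.17, 7.06 and 11.7 RPKM (log2 change 1.10 ± 0.38, limma adjusted p = 0.343). The other 4 members tested overlapped, among them Stab2 at 4.38, 4.86 and 0.884 RPKM against 2.87, 2.43 and 2.60 RPKM (limma adjusted p = 0.969). The sum over 20 stellate cell and fibroblast genes was 75.8 to 132 RPKM against 62.2 to 89.0 RPKM. The part of these cells in the falls of Cd74 and Cxcl12 was not tested.

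**Figure D4:**
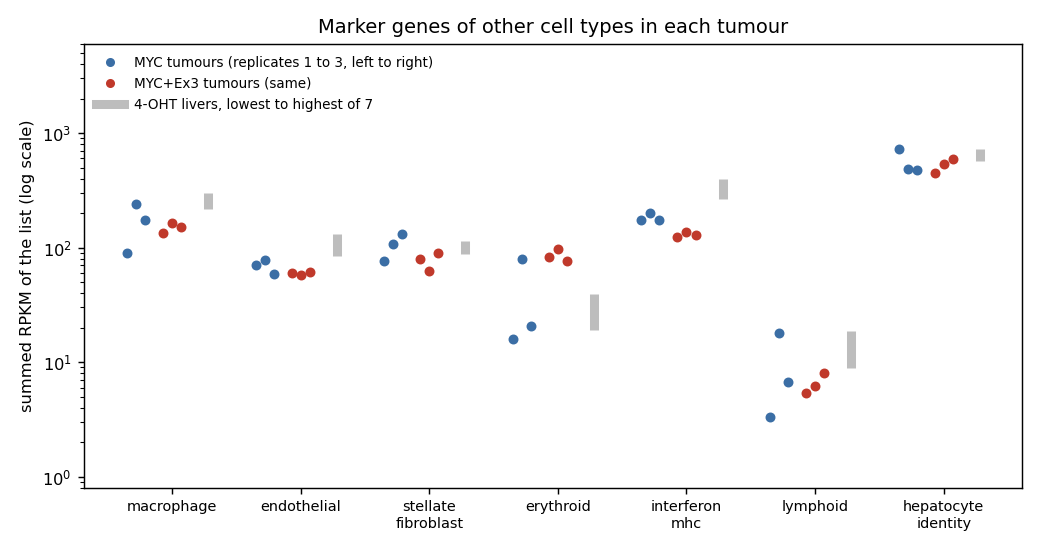
Summed RPKM of marker lists for other cell types and for hepatocyte identity on a log scale, with 1 point per tumour in blue (MYC) and red (MYC+Ex3) and a grey bar over the range of 7 4-OHT livers. Interferon and MHC genes sum to 174 to 201 RPKM in MYC and 125 to 136 RPKM in MYC+Ex3 tumours, and erythroid genes sum to 15.8, 79.0 and 20.7 RPKM in MYC tumours 1, 2 and 3 and 76.5 to 96.3 RPKM in MYC+Ex3 tumours.

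Erythroid genes were high in all MYC+Ex3 tumours and in MYC tumour 2 alone of its group. Alas2, which starts haem synthesis in red cell precursors, had 4.04, 15.6 and 4.45 RPKM against 17.5, 20.5 and 20.0 RPKM (limma adjusted p = 0.267). Slc4a1, the anion exchanger of red cells, had 0.175, 18.8 and 0.809 RPKM against 20.1, 24.6 and 16.5 RPKM (limma adjusted p = 0.361), and the 4-OHT livers had 0.196 to 0.808 RPKM. None of the 7 genes was called by limma or voom, 5 had an unadjusted p under 0.05, and 3 lay above in every MYC+Ex3 tumour (42.9% against 9.1%). With the livers Slc4a1 was called (limma adjusted p = 0.0457). MYC tumour 2 was also the highest MYC tumour in 26 of the 42 rising genes and in Krt19, a bile duct gene (0.0915, 3.98, 0.138, 0.180, 0.220 and 0.354 RPKM in the 6 tumours).

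No gene on the MYC target and proliferation lists passed the test. Of all genes tested 0.633% did, so the lack of a call is near that share and says little about these lists. Of 35 MYC target genes none was called by limma in the 6 tumours or with the 4-OHT livers, nor by voom, 2 had an unadjusted p under 0.05, and 3 lay above without overlap (8.6% against 9.1% of all genes). Ncl, a nucleolar protein gene, had 19.4, 15.2 and 18.1 RPKM against 17.9, 20.8 and 20.5 RPKM, with 4-OHT livers at 3.97 to 5.95 RPKM. All MYC tumours were above all livers in 26 of the 35 genes and all MYC+Ex3 tumours in 31, against 28.2% and 41.0% of all genes tested. Of 34 proliferation genes none was called by limma in either fit or by voom, 4 had an unadjusted p under 0.05, and the median log2 change was 0.34. In this list 5 genes lay above and 1 below without overlap (14.7% and 2.9%, against 9.1% and 6.71% of all genes). Mki67 had 12.7, 24.4 and 21.7 RPKM against 26.1, 29.6 and 24.6 RPKM (log2 change 0.48 ± 0.24, limma adjusted p = 0.575), and MYC tumour 1 was the lowest of the 6 for most of these genes. Among YAP and TAZ genes Yap1 had 6.04, 4.72 and 5.93 RPKM against 5.42, 5.23 and 6.31 RPKM (limma adjusted p = 0.986), none of 25 was called by limma or voom (3 at an unadjusted p under 0.05), and Amotl2 (4.31, 3.10 and 2.79 RPKM against 0.897, 1.13 and 1.34 RPKM) and Crim1 were called lower with the livers in the fit.

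Igf2 and H19, genes of fetal liver, were high in both kinds of tumour. Igf2 had 44.6, 35.6 and 39.5 RPKM against 38.3, 45.3 and 45.3 RPKM and H19 66.1, 41.5 and 45.3 RPKM against 44.8, 53.4 and 52.9 RPKM, all near the upper limit, where 4-OHT livers had at most 0.121 and 1.78 RPKM. Afp had 1.97, 29.6 and 33.5 RPKM against 34.5, 39.3 and 42.1 RPKM, so that MYC tumour 1 stood far below the other 5 (log2 change 1.43 ± 0.83, limma adjusted p = 0.631). Gpc3, a fetal and tumour proteoglycan gene, had 0.571, 3.80 and 11.6 RPKM against 20.0, 20.2 and 23.7 RPKM (log2 change 2.28 ± 0.63, limma adjusted p = 0.231, and 0.0123 with the livers), and its groups did not overlap. Of 19 such genes none was called by limma or voom in the 6 tumours (4 at an unadjusted p under 0.05), and 2 were by limma with the livers (Gpc3 and Trim71).

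Genes listed as differing between the sexes in normal liver were compared because MYC+Ex3 tumour 3 was female. Of 12 genes of female liver tested, 1 rose and none fell, against 0.38% and 0.253% of all genes. Without overlap 4 lay above and 1 below (33.3% and 8.3%, against 9.1% and 6.71%). Of 9 genes of male liver none was called by limma or voom, 4 had an unadjusted p under 0.05, and 3 lay below (Mup20, Ugt2b1 and Nudt7, with log2 changes of -1.12, -1.33 and -0.96) and none above. Not all list members differed by sex in the 4-OHT livers. Nudt7 had 21.1 to 34.2 RPKM in male and 20.6 to 27.9 RPKM in female livers. Gas6, the gene of the female list that lay below, had 6.90 to 9.63 RPKM and 6.91 to 11.5 RPKM. Sult2a1, a sulfotransferase of female liver, had 0.451, 10.8 and 0.982 RPKM in the MYC tumours and 19.03, 22.8 and 24.0 RPKM in the MYC+Ex3 tumours, against at most 0.0344 RPKM in male and 5.15 to 15.2 RPKM in female 4-OHT livers. The MYC+Ex3 tumours 1 and 2, which were male, were thus above the female livers. The change of 2.82 ± 0.68 was not called (limma adjusted p = 0.167). Cyp3a16, also of female liver, rose from 0.0484, 2.34 and 0.344 RPKM to 7.67, 9.87 and 18.4 RPKM (log2 change 2.87 ± 0.46, limma adjusted p = 0.0418, but 0.0685 with the livers in the fit), with the female tumour highest, and it has close paralogs with which it can share reads, as have the Sult2a genes. Cyp2b13, a further gene of female liver, had at most 0.494 RPKM in any tumour against 9.57 to 12.6 RPKM in female livers. Selenbp2, which fell, had 9.85 to 23.4 RPKM in male and 2.68 to 5.36 RPKM in female livers. With male tumours only, no gene was called (688 at an unadjusted p under 0.05), and the 47 of the 70 genes that could be tested kept their direction. This is the same fit as that without MYC+Ex3 tumour 3, the only female tumour. It cannot tell the part of sex from that of the loss of a tumour.

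**Figure D5:**
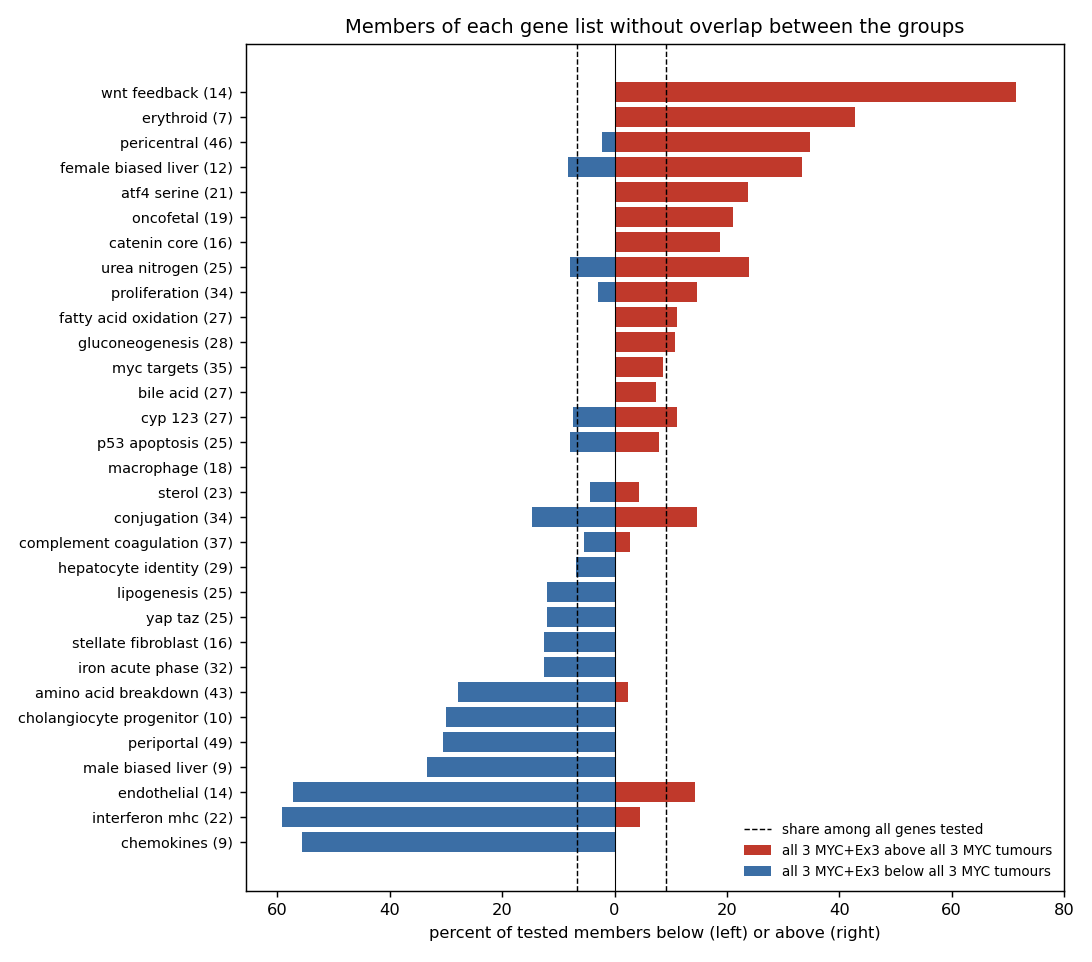
Share of the tested members of each gene list in which all 3 MYC+Ex3 tumours lie above (red, right) or below (blue, left) all 3 MYC tumours, in percent, with the number tested in brackets and dashed lines at the shares among all genes tested (9.1% above and 6.71% below). Wnt feedback genes reach 71.4% above, and interferon and MHC genes 59.1% below, while no macrophage gene separates the groups. Of the 14 Wnt feedback genes 5 passed the filter only through the MYC+Ex3 tumours and so had to lie above. Ifit1 and Ifit3 passed only through the MYC tumours and so had to lie below. Over all members, tested or not, the 2 shares are 48.0% above and 54.84% below, against 6.35% and 6.53% of all genes.

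The remaining lists held few or no called genes, where 0.633% of all genes tested were called. None of 28 glycolysis and gluconeogenesis genes, 27 bile acid genes, 25 lipogenesis genes, 23 sterol genes, 37 complement and coagulation genes, 34 conjugation genes, 29 hepatocyte identity genes or 21 genes of the serine and amino acid response was called in the 6 tumours by limma or voom. At an unadjusted p under 0.05 there were 3, 2, 4, 1, 4, 9, 2 and 3 of them, in that order. With the livers in the fit the conjugation genes had 1 call higher (Gstm5) and 2 lower (Ugt2b36 and Gstk1), and Hk2, Abcc4 and F11, of the gluconeogenesis, bile acid and coagulation lists, were called higher. Ghr, a hepatocyte identity gene, was called lower, the serine and amino acid response had 2 calls higher (Slc7a5 and Slc1a5, amino acid transporters), and the lipogenesis and sterol genes had none. Slc1a5 had 1.93, 5.69 and 15.2 RPKM against 17.4, 18.1 and 21.1 RPKM (log2 change 1.54 ± 0.52, limma adjusted p = 0.343 and 0.045). Likewise none was called among 16 β-catenin core genes, 25 p53 and apoptosis genes, 10 bile duct and progenitor genes and 16 stellate cell and fibroblast genes, with 2, 2, 4 and 2 at an unadjusted p under 0.05. Without overlap 18.8%, 8.0%, 0% and 0% of these lay above and 0%, 8.0%, 30.0% and 12.5% below. With the livers each of these 4 lists had 1 call, Lrp5 higher and Bik, Spp1 and Col3a1 lower. The cytochrome P450 list of 27 tested genes had 1 call, Cyp3a16, which was not called with the livers in the fit, where Cyp2j5 and Cyp2j6 were called lower (limma adjusted p = 0.012 and 0.0312).

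The authors' deposited table holds its own comparison of the same tumours. There, in the authors' deposited table, 615 of 13710 genes with an adjusted p-value are below 0.05 (4.49%), 214 higher and 401 lower. Of the 70 genes called here, 64 were called in the same direction in the authors' deposited table, 2 had no adjusted p there and 4 (Pnliprp1, Gpr64, Slc1a2 and Cyp3a16) had one of at least 0.05, while the sign was the same for all 70. For Glul and Gls2, which missed the threshold here, the authors' deposited table gives adjusted p-values of 0.00121 and 4.84e-06.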

How the data were processed

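Total RNA of liver nodules and livers was sequenced from stranded libraries. The authors deposited RPKM values per gene, per the file headers, and a comparison table of log2 fold changes and adjusted p-values, per the file headers. The submitters' processing notes name mm9, TopHat2 2.0.8, SAMtools, featureCounts 1.4.5-p1 and DESeq2, with no role or order, so which of them made the RPKM values is not given in the sources used here. In the deposited RPKM values each gene moved in steps of 1 read (tolerance 0.01), from which reads per gene and relative depth were recovered.

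Genes with RPKM of at least 1 in at least 3 of the 6 tumours were tested on log2(RPKM + 1), a pseudocount of 1, which understates changes of low genes, with limma 3.58.1 (eBayes with a trend; R 4.3.3) on the 6 tumours, adjusted by Benjamini-Hochberg over all genes tested, threshold 0.05. The fit was tested on simulated data. Tables were made with Python 3.11.15, pandas 2.3.3 and numpy 2.4.6. Alternatives were another pseudocount, other filters, rescaling, the 7 4-OHT livers in the fit, variance models, sample weights, male tumours only and leaving out each tumour. Male tumours only is the same fit as leaving out MYC+Ex3 tumour 3. After the data had been seen, voom on recovered reads, the fit with livers combined with rescaling or leaving out a tumour, and list counts under each setting were added.

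The gene lists and the contrast were chosen with earlier results of these data known. Named genes are the 12 largest rises and falls among called genes without overlap and with a mean of at least 2 RPKM, leaving out unnamed, small RNA and sex-linked genes, together with a panel of pathway genes and called list members; a few genes are not reported here. Uncertainty of read counts covers counting error only. Columns of other series numbered 0.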

Additional observations from a re-analysis of the deposited data

Results flagged for a closer look

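Among 55 genes examined in the 7 4-OHT livers, a liver far from the others was found in 3, and chance gives about 1 in 20 such groups. Ldhb had 1.21 RPKM in liver 1 against 0.673 RPKM in the next highest. H19 had 1.78 RPKM in liver 1 against 0.572 RPKM in the next. Cyp3a16 had 13.2 RPKM in liver 6, a female liver, against 3.29 RPKM in the next highest. For Ldhb and H19 the flagged liver was still below the MYC+Ex3 tumours, whereas Cyp3a16 in liver 6 was within their range.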

How the results depend on the processing

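No paired analysis was possible because the labels give the tumours no replicate numbers that are shared between the groups. The 70 called genes became 42 with a pseudocount of 0.1, 17 with no filter, 36 with a filter at RPKM of 5, 487 with the 7 4-OHT livers, 117 with sample weights, 0 with male tumours only (688 at an unadjusted p under 0.05) and 20 with voom on recovered reads, and 579 with the livers and rescaling. Leaving out each tumour gave 0 to 170 genes, and 192 to 686 with the livers in the fit. Rescaling gave 50 genes, 64.0% of them higher against 60.0%, and leaving out the trend 76. Of the 70 genes, all that were tested kept their sign in each of these alternatives. The 37 named or listed called genes reversed in none of the alternatives that tested them. These were all 22 for some genes and fewer for others by the filter, such as 15 for Axin2 and 14 for Lgr5 and Sp5. Of the 26 panel genes that were not called, 8 reversed in at least 1 alternative, and uncalled genes outside the panel were not counted (Dld, for example, was at -0.0234 with voom). Cps1 was at -0.0315 with male tumours only. Yap1 was at -0.0474 with male tumours only and -0.0258 with voom. H19 was at -0.0178 after rescaling, -0.0287 with male tumours only and -0.0403 with voom. Alb was at 0.0148 with sample weights. When each tumour was left out, the log2 change ranged from -0.0146 to 0.2095 for Ctnnb1, -1.376 to 0.0157 for Pck1, -0.0737 to 0.2356 for Cps1 and -0.0736 to 0.076 for Yap1. It ranged from -0.809 to 0.0819 for Wwtr1, -0.2419 to 0.2653 for Ctgf, -0.1223 to 0.2074 for H19 and -0.1833 to 0.0662 for Alb. The cause of these differences was not tested, except that leaving out a tumour also leaves fewer samples and, by the filter, fewer genes.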
